A study of Homo sapiens with 12 samples.

Results

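The genes described here are SREBF1, SREBF2, SCAP, INSIG1, INSIG2, MBTPS1 and MBTPS2, which encode the sterol regulatory element-binding proteins (SREBPs) and the machinery that senses sterol and releases them. These 7 of the 20090 protein-coding genes in the annotation were chosen by name and not by any measured value, and the regions listed at their promoters and within 10 kb of them were read from 6 ChIP-seq lists. The cells were HCC70, an established triple-negative breast cancer line, treated for 24 h with vehicle or with 5 µM XY018, an antagonist of the nuclear receptor RORγ, according to the labels (the study's methods give a lower dose). Chromatin was precipitated with antibodies to SREBP2, to RORγ or to H3K27ac, the histone acetylation found at active promoters and enhancers. The RORγ antibody was a rabbit serum raised against a fragment of the human protein. Each of the 6 combinations of antibody and treatment was 1 library, so no difference below has a replicate check and no p-value is given, and all intervals are 95% intervals for counting error only.

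SREBF1 and SREBF2 encode SREBP1 and SREBP2, transcription factors made as membrane proteins of the endoplasmic reticulum. SCAP holds them there and escorts them to the Golgi when sterol is low, whereas the INSIG proteins keep the complex in the endoplasmic reticulum when sterol is high. In the Golgi the site-1 protease (MBTPS1) and then the site-2 protease (MBTPS2) cut the precursor, and the released factor enters the nucleus and binds sterol regulatory elements in genes for cholesterol and fatty acid synthesis. SREBF2 and INSIG1 are themselves textbook targets of SREBPs. RORγ binds half-sites of the AGGTCA type.

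The sequences of the 2 SREBF genes that held a sterol regulatory element next to a CCAAT box are printed first, because they place the motif against the measured summits. The first stretch ends at the base before the main start of SREBF2, the start of its Ensembl canonical transcript (chr22:42228939-42229108, GRCh37, + strand). The second surrounds the summit of an SREBP2 region 3.2 kb upstream of the main start of SREBF1, between genes (chr17:17743394-17743594, GRCh37, - strand). Capitals mark TCACNCCAC, the letters searched for a sterol regulatory element (SRE), and ATTGG, which on the opposite strand reads as a CCAAT box.
SREBF2 promoter: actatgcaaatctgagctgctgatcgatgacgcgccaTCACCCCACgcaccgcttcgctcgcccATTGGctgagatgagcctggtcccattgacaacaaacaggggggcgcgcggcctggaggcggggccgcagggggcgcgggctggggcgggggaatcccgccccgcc
SREBF1 upstream region: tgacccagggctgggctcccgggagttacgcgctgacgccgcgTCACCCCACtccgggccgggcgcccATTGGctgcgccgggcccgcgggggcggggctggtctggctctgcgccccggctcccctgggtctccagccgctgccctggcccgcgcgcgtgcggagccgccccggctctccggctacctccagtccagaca

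Both stretches held the same 9 letters, with 18 bases between the SRE and the inverted CCAAT box in SREBF2 and 16 in SREBF1. An SRE followed by ATTGG within 30 bases, searched on both strands, was found in 11 of 19808 main promoters and within 100 bp of the summit of 10 of the 117441 SREBP2 regions with vehicle. This arrangement was chosen after the 2 sequences had been seen, so these counts are a description. SREBF2 was the only one of the 7 members with an SRE in its promoter (1 kb before to 100 bp after the main start), 133 bases before the start, and 6.11% of all main promoters held one on either strand.

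The promoters of INSIG1 and INSIG2 are shown for contrast, since the former was occupied in all 6 lists and the latter carried no SREBP2 or RORγ region. The INSIG1 stretch covers chr7:155089338-155089485 (+ strand) and the INSIG2 stretch chr2:118845877-118846027 (+ strand), both in GRCh37. Capitals again mark an inverted CCAAT box.
INSIG1 promoter: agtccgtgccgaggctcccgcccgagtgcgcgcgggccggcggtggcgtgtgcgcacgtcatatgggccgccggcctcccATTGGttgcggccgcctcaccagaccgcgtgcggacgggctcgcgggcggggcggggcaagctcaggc
INSIG2 promoter: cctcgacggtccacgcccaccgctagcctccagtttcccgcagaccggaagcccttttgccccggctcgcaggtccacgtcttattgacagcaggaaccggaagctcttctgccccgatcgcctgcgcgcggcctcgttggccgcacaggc

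INSIG1 held 10 GC boxes (GGGCGG, both strands) in its main promoter against 2 in INSIG2, and 6 of the 7 members held at least 1, with MBTPS2 the exception. Over all main promoters 72.6% held a GC box and 73.5% a CCAAT box (CCAAT, both strands), which 5 members held. The E-box CACGTG, which reads the same on both strands and which SREBPs can also bind, stood 58 bases before the start of SCAP, 55 before that of INSIG1 and 565 before that of MBTPS1, and was present in 19.6% of all main promoters. AGGTCA on either strand was found in SREBF1, SREBF2 and INSIG1, and in 48.4% of all. The main promoters ranged from 42.9% G and C in MBTPS2 to 71.6% in INSIG1.

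The lists hold regions that passed the peak caller, not reads. The SREBP2 and RORγ lists include weak calls, with a lowest −log10 q of 0.216 for SREBP2 and 0.427 for RORγ with XY018. The weakest regions thus have q far above 0.01, and the presence of such a region in a single treatment carries little weight. The paper's counts of high-confidence SREBP2 and RORγ sites, made under stricter limits, are smaller than these lists. For each region the number of overlapping fragments at the summit, the pileup, was recovered from the deposited enrichment and p-value, and was divided by the genome-wide background of its library, which ranged from 0.712 to 1.214 fragments. The lists held from 69700 regions (SREBP2 with XY018) to 167264 (RORγ with vehicle). The SREBP2 list was shorter with XY018 than with vehicle (117441 regions), and the background of the XY018 library was the highest of the 6. By tags per kb that library had 5.92, under the 6.16 of H3K27ac with vehicle. The cause of the shorter list was not tested. Of the promoters of basal-like markers 5 of 6 carried H3K27ac in both treatments, EGFR with 231 and 255 fragments with vehicle and XY018, and KRT14 carried none. Among markers of other tissues, PTPRC, CD3E, ALB and APOA2 carried none and CDH5 had 12 fragments in both treatments, and of the luminal receptors ESR1 had 10 and 13 and PGR had none.

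SREBP2 occupied the promoters of SREBF1, SREBF2, SCAP, INSIG1, MBTPS1 and MBTPS2 with vehicle and with XY018, that is 6 of 7 members in each list, and at q of at most 0.01 MBTPS2 was no longer called with XY018, which left 5. INSIG2 had no SREBP2 region at a promoter or within 10 kb in either list. Over all protein-coding genes 70.6% had a promoter region in the vehicle list and 62.7% in the XY018 list, where a promoter is the window around any annotated start, so a promoter region is what most genes have and the members' count is no result about them. RORγ regions were listed at the same 6 promoters in both treatments, against 62.7% of all genes with vehicle and 61.5% with XY018. H3K27ac was listed at all 7 promoters in both, against 66.8% and 68.0% of all genes. A promoter region in all 6 lists was found for 6 of the 7 members and for 46.3% of all genes. The weakest regions in the SREBP2 lists had 4 fragments at the summit and those in the RORγ lists 3, so occupancy at INSIG2 below the caller's threshold is not seen.

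**Figure D1:**
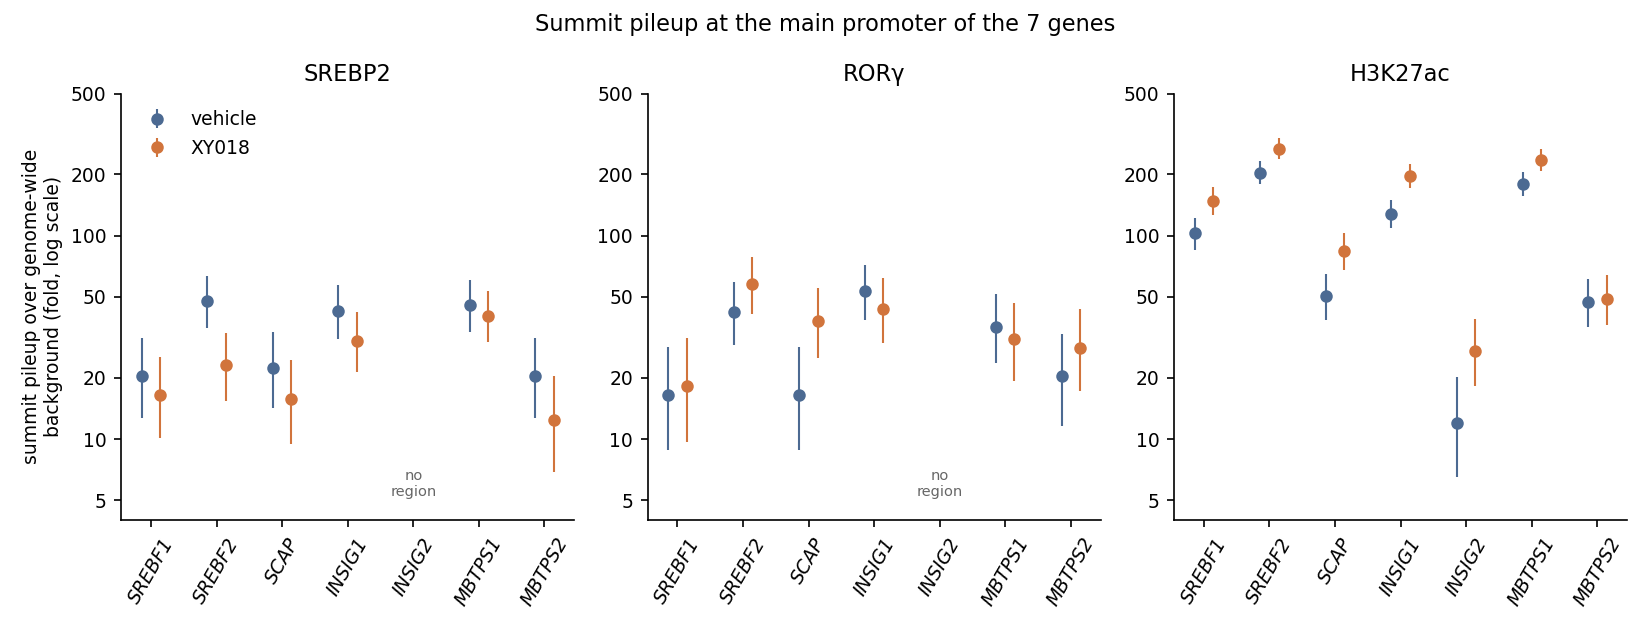
Summit pileup over the genome-wide background (fold, log scale) at the main promoter of each gene, for SREBP2, RORγ and H3K27ac with vehicle (blue) and XY018 (orange). Points are single libraries and bars are exact 95% Poisson intervals. INSIG2 has no SREBP2 or RORγ region and the lowest H3K27ac value of the 7 genes with either treatment, plotted for the region after its start.

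SREBP2 had the highest promoter pileup with vehicle at SREBF2, MBTPS1 and INSIG1. At the main promoter of SREBF2 the summit held 49 fragments with vehicle and 28 with XY018, at MBTPS1 47 and 49, and at INSIG1 44 and 37. The other 3 were lower, with 23 and 19 at SCAP, 21 and 20 at SREBF1, and 21 and 15 at MBTPS2. The main-start intervals of SREBF2 (36.3 to 64.8 fragments), MBTPS1 and INSIG1 with vehicle overlapped each other. That of SREBF2 did not overlap the main-start intervals of SCAP, SREBF1 or MBTPS2, which reached 34.5 fragments at most. At another of its starts SREBF1 held 32 fragments with vehicle (21.9 to 45.2), an interval that did overlap that of SREBF2. Relative to the other genes called in the vehicle list, SREBF2 stood above 83.4% and MBTPS2 above 27.4%. With XY018 MBTPS1 had the highest value of the 7 and stood above 93.9% of the called genes.

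After scaling by background, SREBP2 pileup was lower with XY018 at all 6 promoters. The XY018 to vehicle ratio was 0.484 at SREBF2 (95% interval 0.293 to 0.785), 0.605 at MBTPS2 (0.290 to 1.23), 0.70 at SCAP (0.360 to 1.34), 0.712 at INSIG1 (0.447 to 1.13), 0.806 at SREBF1 (0.415 to 1.56) and 0.883 at MBTPS1 (0.579 to 1.35). SREBF2 was the only promoter of the 6 whose interval excluded 1, and with tags per kb in place of the background its ratio was 0.536 (0.324 to 0.870). Over the 12564 genes with a promoter region paired between the SREBP2 lists, 98.1% had a ratio under 1 and the median was 0.621, or 0.688 by tags per kb. The members' decrease is therefore near that of all promoters, and each of the 6 intervals included the median of all promoters. That median takes each gene's strongest pair at any start, whereas the members' ratios above are from the main start. By the strongest pair at any start SREBF1 had 32 and 28 fragments (ratio 0.741, 0.430 to 1.27), and the other members were unchanged. At MBTPS2 the XY018 value is from a region 380 bp after the start that lies outside the promoter window, and the XY018 region inside the window had 6 fragments.

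RORγ pileup did not move in 1 direction at these promoters. At SCAP the summit held 13 fragments with vehicle and 27 with XY018, a ratio of 2.30 (1.14 to 4.85), the only RORγ interval among the 6 that excluded 1 and the only one that excluded the median over all promoters, which was 0.967. SREBF2 had 33 and 41 fragments (ratio 1.37, 0.847 to 2.24), MBTPS2 16 and 20 (1.38, 0.680 to 2.85) and SREBF1 13 in both (1.11, 0.472 to 2.59). INSIG1 had 42 and 31 (0.816, 0.496 to 1.33) and MBTPS1 28 and 22 (0.868, 0.474 to 1.57). Thus 2 of the 6 were under 1, against 54.8% of the 11571 genes paired between the RORγ lists. The values over all genes take the strongest pair at any start, by which SREBF1 had 29 and 36 fragments (1.37, 0.818 to 2.32). The SCAP value rests on 13 and 27 fragments in 1 library each.

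After scaling by background, H3K27ac pileup at the strongest pair of regions was higher with XY018 at the 7 promoters, and at 6 the interval of the ratio excluded 1. With the vehicle summit nearest to any start instead, the ratio of SREBF1 was 0.969. SREBF2 carried the most acetylation, 239 fragments with vehicle and 286 with XY018 (ratio 1.31, 1.1 to 1.56), followed by MBTPS1 with 210 and 251 (1.31, 1.09 to 1.58). INSIG1 had 150 and 211 (1.54, 1.24 to 1.91), SREBF1 120 and 158 (1.44, 1.13 to 1.84) and SCAP 59 and 90 (1.67, 1.19 to 2.36). MBTPS2 had 55 and 52 (1.04, 0.695 to 1.54), the one interval that included 1. INSIG2 had the lowest level of the 7 and 2 pairs of regions in its promoter window, which moved in opposite directions, the one after the start from 14 to 29 fragments (2.27, 1.16 to 4.65) and the one before it from 17 to 11 (0.709, 0.30 to 1.6). Over the 13052 genes paired between the H3K27ac lists 19.6% had a ratio under 1 and the median was 1.27, and the interval of each member's strongest pair included this median.

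**Figure D2:**
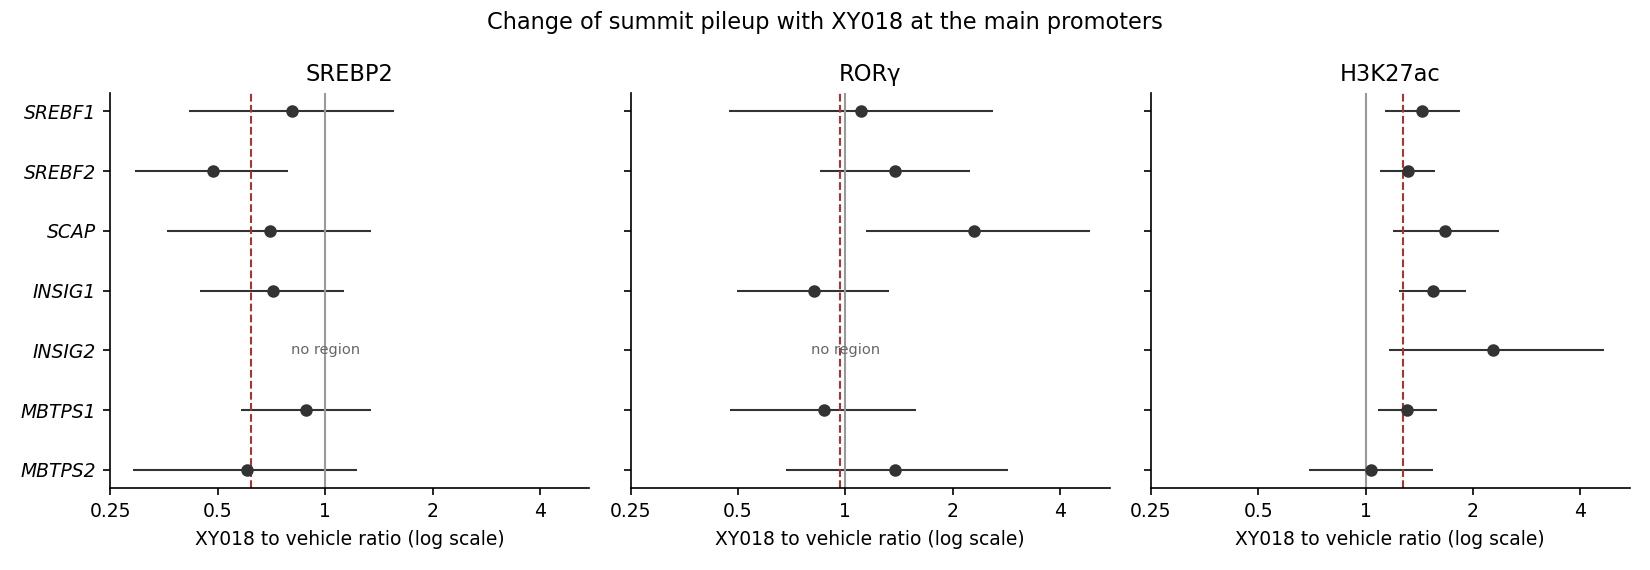
XY018 to vehicle ratio of summit pileup over background (log scale) at the main promoter of each gene, by antibody. Bars are exact conditional binomial 95% intervals, the grey line is 1 and the red dashed line is the median over all paired promoters (0.621, 0.967 and 1.27). That median takes each gene's strongest pair at any start. For SREBP2 the points lie under 1 and only the interval of SREBF2 excludes 1, for RORγ only that of SCAP, and for H3K27ac all but that of MBTPS2.

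The products of both INSIG genes retain SCAP, but INSIG1 was occupied by SREBP2 and RORγ and INSIG2 was not listed for either. INSIG1 had 1 SREBP2 region within 10 kb in each list, at its promoter and 1.38 kb wide with vehicle, and its H3K27ac was also a single region in each list. Its SREBP2 summit was 218 bp after the main start with vehicle and 388 bp before it with XY018, and its RORγ region was listed as 1 region with vehicle and as 2 with XY018, of 31 and 18 fragments. INSIG2 had 5 H3K27ac regions with vehicle, of 11 to 17 fragments, and 7 with XY018, of 9 to 29. By its strongest region in a promoter window, which was the one before the start with vehicle (17 fragments) and the one after it with XY018 (29), INSIG2 stood above 11.2% of the genes called for H3K27ac with vehicle and above 26.1% with XY018, whereas INSIG1 stood above 87.2% and 91.9%.

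Beyond the promoters, 51 SREBP2 regions lay within 10 kb of the members with vehicle and 37 with XY018. For RORγ the numbers were 45 and 45, and for H3K27ac 91 and 87. Of the 51 SREBP2 regions 31 (60.8%, exact Clopper-Pearson interval 46.1 to 74.2) overlapped an XY018 region by at least 1 base, against 39.8% of all SREBP2 vehicle regions. For RORγ 26 of 45 (57.8%) overlapped one, against 36.4%, and for H3K27ac 70 of 91 (76.9%), against 69.3%. Of the 37 SREBP2 regions with XY018 35 (94.6%, 81.8 to 99.3) were also in the vehicle list, against 70.2% of all 69700. The SREBP2 regions that were kept had a median of 23 fragments with vehicle and those not kept 7.

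At SREBF2 the highest SREBP2 and RORγ values of each list were not at the promoter but in the last part of the gene and beyond it. For RORγ with XY018 the promoter held 41 fragments against 42. For SREBP2 with vehicle it held 49 against 63, a value inside the promoter's interval (36.3 to 64.8). The gap was wider for SREBP2 with XY018 (28 against 51) and for RORγ with vehicle (33 against 61). From 65 to 83 kb after the main start there were 7 SREBP2 regions with vehicle of 6 to 63 fragments and 6 with XY018 of 8 to 51. This span covers the last exons and sequence past the end of the gene, in part the neighbouring gene SHISA8. The highest, with its vehicle summit 77.1 kb after the start (chr22:42305443-42307494), held 63 fragments with vehicle and 51 with XY018. In the last exons a region 72.4 kb after the start held 52 and 39 (ratio 0.635, 0.408 to 0.981). Past the end of the gene, a region at 81.6 kb held 47 and 33 (0.595, 0.369 to 0.948). RORγ in the same span had 6 regions with vehicle, of 7 to 61 fragments, and 5 with XY018, of 14 to 42. The RORγ region at 81.1 kb held 61 and 40 fragments (0.725, 0.474 to 1.1) and that at 76.9 kb 53 and 42 (0.876, 0.570 to 1.34).

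H3K27ac at SREBF2 was highest at the promoter, and most of its other regions lay in the first part of the gene. In the first 40 kb after the promoter there were 24 H3K27ac regions with vehicle of 8 to 48 fragments and 25 with XY018 of 10 to 50. The same span held 3 SREBP2 regions with vehicle of 5 to 7 fragments and none with XY018, and 1 and 3 RORγ regions. From 65 to 83 kb H3K27ac had 5 regions with vehicle and 3 with XY018, of at most 39 and 48 fragments. The highest single regions of the 2 spans were thus similar, and both were far under the 239 and 286 fragments at the promoter.

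**Figure D3:**
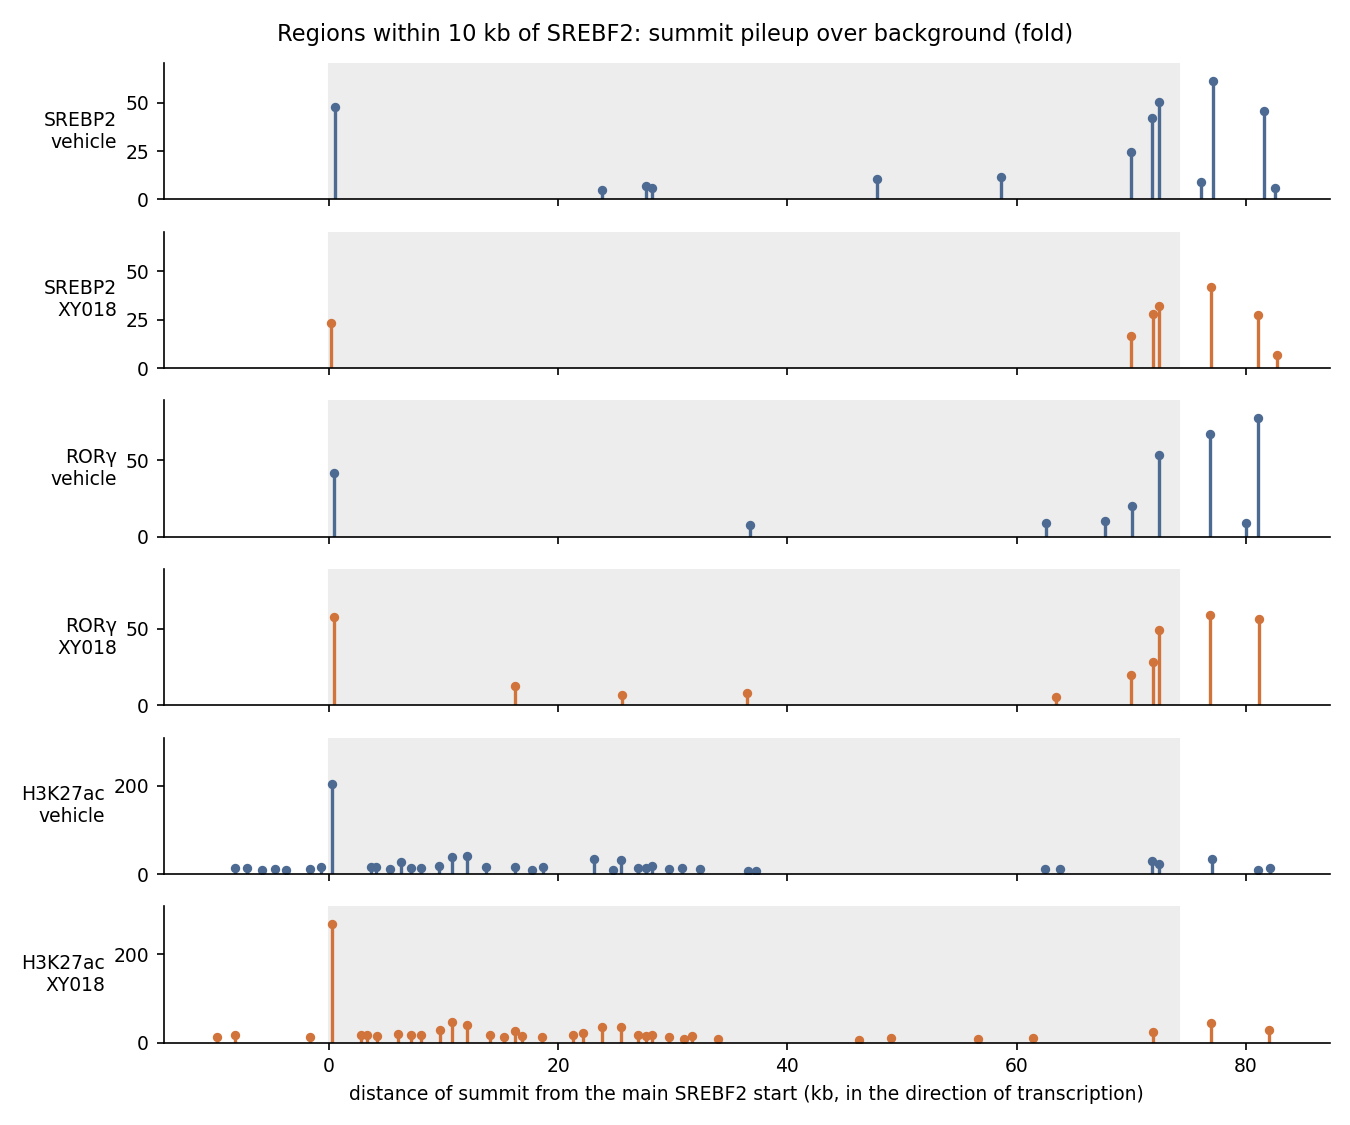
Regions within 10 kb of SREBF2 in the 6 lists, with the distance of each summit from the main start (kb) on the x axis and the summit pileup over background (fold) on the y axis, whose range is shared by both treatments of an antibody. The grey band is the gene. The promoter is marked in every list, SREBP2 and RORγ are strong again from 65 to 83 kb, and H3K27ac fills the first 40 kb.

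The SRE of the SREBF2 promoter (chr22:42228976-42228984) was at the edge of its SREBP2 region. With vehicle 6 of its 9 bases and with XY018 all 9 lay inside the listed region, and the summit was 669 bases after the start of the motif with vehicle and 365 with XY018. The summit of the other printed SRE, upstream of SREBF1, was within 100 bases of it. That region held 18 fragments with vehicle and 9 with XY018 (ratio 0.423, 0.168 to 0.992), overlapped H3K27ac but no RORγ region in either treatment, and was not within a promoter window of SREBF1. By tags per kb its ratio was 0.469.

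SREBF1 had 15 SREBP2 regions with vehicle and 13 with XY018, the most of the members, and like SREBF2 it had a cluster near its 3′ end. From 19 to 28 kb after the main start there were 6 SREBP2 regions in each list, of 13 to 44 fragments with vehicle and 13 to 32 with XY018, and 8 and 6 RORγ regions, of 6 to 39 and 7 to 37 fragments. The region just past the end of the gene, in which the gene RAI1 ends on the opposite strand, had an SREBP2 pileup of 44 with vehicle and of 32 with XY018 (ratio 0.616, 0.378 to 0.993). A region 19.6 kb after the start was listed for SREBP2 only with vehicle, with 22 fragments, the one region overlapping RORγ that was not kept. At the main promoter SREBP2 and RORγ held 21 and 13 fragments with vehicle, fewer than at the highest regions of this cluster.

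One region of the cluster coincides with the gene of a microRNA. The SREBP2 and RORγ summits with vehicle, 23.1 kb after the start, lay in MIR33B (chr17:17717150-17717245, hg19), and a region of each of the 6 lists overlapped it. SREBP2 held 32 fragments there with vehicle and 28 with XY018 (ratio 0.741, 0.430 to 1.27), and RORγ 29 and 36 (1.37, 0.818 to 2.32). MIR33A, in an intron of SREBF2 67.8 kb after the main start (chr22:42296948-42297016, hg19), was overlapped only by a RORγ region with vehicle, of 8 fragments. Their mature 5p products, from RefSeq, are shown because these 2 introns carry the same seed, bases 2 to 8 in capitals. Mir-33 is known to repress cholesterol export genes such as ABCA1.
miR-33b-5p: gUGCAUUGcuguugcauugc
miR-33a-5p: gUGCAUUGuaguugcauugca

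**Figure D4:**
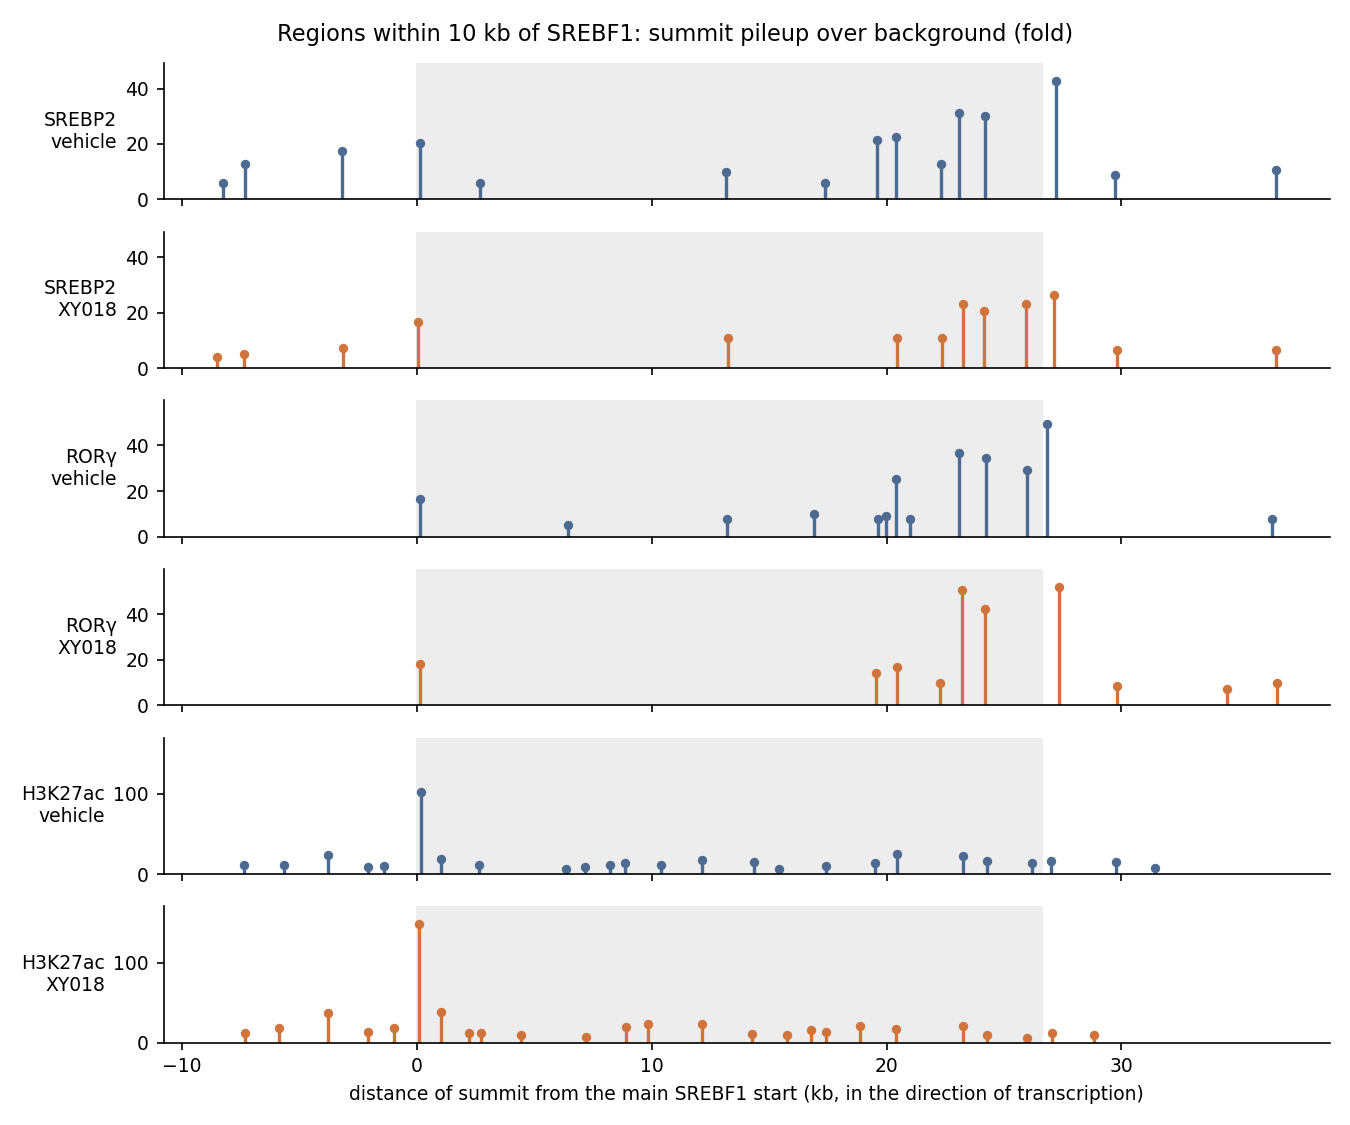
Regions within 10 kb of SREBF1 in the 6 lists, with the distance of each summit from the main start (kb) on the x axis and the summit pileup over background (fold) on the y axis, whose range is shared by both treatments of an antibody. The grey band is the gene. SREBP2 and RORγ are highest from 19 to 28 kb, whereas H3K27ac is highest at the main promoter, with 120 and 158 fragments.

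SCAP had 11 SREBP2 regions with vehicle and 9 with XY018, most of them over its last exons and in the neighbouring gene PTPN23. The largest decreases of SREBP2 among the kept regions of the members were here. A region over exons 58.4 kb after the main start held 31 fragments with vehicle and 13 with XY018 (ratio 0.355, 0.171 to 0.699), and 2 in PTPN23 held 17 and 7 (0.349, 0.122 to 0.885) and 20 and 9 (0.381, 0.153 to 0.875). The adjoining exon region, 57.5 kb after the start, held 20 and 24 (1.02, 0.538 to 1.94). RORγ at the same exons held 19 and 23 fragments (1.34, 0.697 to 2.60) and 30 and 25 (0.921, 0.519 to 1.62). Both intervals include 1, as those of the other RORγ regions kept near SCAP do, apart from the promoter.

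At MBTPS1 the promoter was occupied in both SREBP2 lists. Of 9 SREBP2 regions with vehicle 3 overlapped one of the 3 with XY018, a share near the 39.8% of the whole list. The strongest lay 71.3 kb after the main start and outside the gene (chr16:84078979-84079445), with 57 fragments with vehicle and 40 with XY018 (ratio 0.594, 0.386 to 0.906), and RORγ there held 49 and 33 (0.744, 0.464 to 1.18). A region 4.28 kb upstream of the start was occupied by SREBP2 with vehicle (22 fragments) and was missing from the XY018 list. Its sequence is shown because it holds an SRE (chr16:84154724-84154924, GRCh37, - strand), here on the opposite strand, in capitals.
MBTPS1 upstream region: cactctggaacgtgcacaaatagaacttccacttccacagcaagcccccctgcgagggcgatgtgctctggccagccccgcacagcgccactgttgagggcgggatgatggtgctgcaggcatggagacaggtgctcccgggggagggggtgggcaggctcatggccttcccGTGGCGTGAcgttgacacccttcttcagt

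This region overlapped H3K27ac but not RORγ with vehicle, and with XY018 a RORγ region of 8 fragments was listed there. In all, 4 of the 51 SREBP2 vehicle regions near the members had an SRE within 100 bp of the summit, at MBTPS1 (22 and 7 fragments), SREBF1 (18) and SCAP (7), and 1 of the 4, that of SREBF1, was kept. Over all SREBP2 vehicle regions 2.42% had one. None of the 4 overlapped a RORγ vehicle region. MBTPS2, the X-linked member, had 2 SREBP2 regions with vehicle, at its promoter and 16.5 kb into the gene in the intronless gene YY2, of 21 and 8 fragments.

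RORγ regions overlapped 27 of the 51 SREBP2 vehicle regions (52.9%, exact interval 38.5 to 67.1), against 49.0% of all SREBP2 vehicle regions. H3K27ac overlapped 30 (58.8%, 44.2 to 72.4), against 27.3%. Of the 27 with RORγ 26 were kept with XY018 (96.3%, 81.0 to 99.9), and of the 24 without it 5 were kept (20.8%, 7.13 to 42.2). Over all SREBP2 vehicle regions the shares kept were 69.1% with RORγ and 11.6% without it. The regions with RORγ were also stronger, with a median of 25 fragments against 7.5. Among regions of 10 to 25 fragments, a range chosen after the values were seen, 11 of 12 with RORγ and 4 of 9 without it were kept. The same split over all SREBP2 vehicle regions of 10 to 25 fragments gave 71.8% of 22583 with RORγ and 24.7% of 16143 without it, so the whole list was split in the same direction. The medians within this range still differed, 20.5 and 13 fragments at the members.

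**Figure D5:**
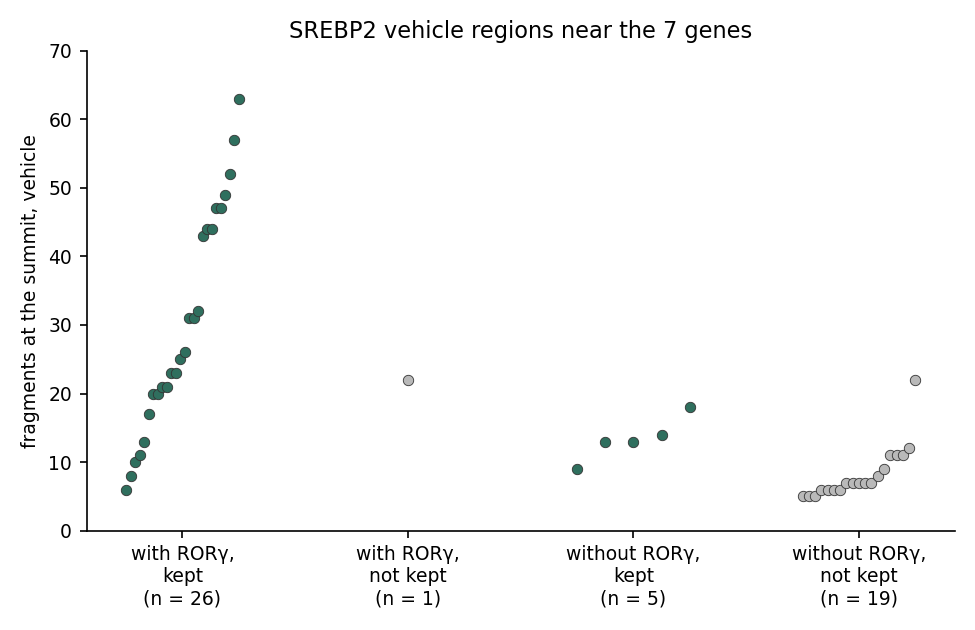
Fragments at the summit of the 51 SREBP2 vehicle regions within 10 kb of the 7 genes, split by overlap with a RORγ vehicle region and by whether an SREBP2 region was listed there with XY018 (green, kept, and grey, not kept). Each point is 1 region and the horizontal spread within a column only separates the points. All 13 regions of more than 25 fragments overlap RORγ and were kept.

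Over the 31 SREBP2 regions kept at the members 28 had a lower pileup with XY018, in both scalings, with a median ratio of 0.635, and for 10 the interval lay under 1. By tags per kb the median was 0.704 and 4 intervals lay under 1, those of the SREBF2 promoter and of the 3 SCAP regions with the lowest ratios. Over the 24 RORγ regions kept and matched one to one 11 were lower, the median was 1.08, and the SCAP promoter was the only one whose interval lay above 1. Neither set is independent of the choice of lists, since a region must be called in both to be counted.

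Other genes of the pathway were read from 4 fixed lists. For scale, SREBP2 was called at 70.6% of all protein-coding genes under vehicle but at 62.7% under XY018. Fewer calls with XY018 were thus also seen over all genes. Whether any of the 4 lists departs from these shares was not tested. The first list holds 12 genes grouped under retention and degradation at the endoplasmic reticulum, although not all of their products act there. With SREBP2 10 were called with vehicle and 8 with XY018, and ERLIN1 (13 fragments) and FAF2 (10) were called only with vehicle. Of the 8 paired, the median ratio was 0.560, from 0.423 at PAQR3 (24 and 12 fragments) to 0.776 at NPLOC4 (60 and 55), a cofactor of the VCP segregase. RORγ at FAF2 was listed only with XY018, with 4 fragments.

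The second list holds 10 genes of the COPII coat, which carries SCAP and its cargo to the Golgi. With SREBP2 9 were called with vehicle and 6 with XY018, and SAR1B (15 fragments), SEC13 (9) and SEC23B (7) were called only with vehicle. At SAR1B an XY018 region of 11 fragments overlapped the vehicle region but lay outside the promoter window. SEC24A had an SREBP2 pair with the same values, 15 and 11 fragments, and was called in both lists. These values count at both genes, and their ratio is the median given next. The ratio ran from 0.508 at SAR1A (15 and 9) to 0.884 at SEC24D (23 and 24) with a median of 0.621. For RORγ SEC13 and SEC31A were called only with vehicle, with 7 and 9 fragments, and SAR1A, SAR1B and SEC24A only with XY018, with 4, 5 and 4.

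The third list holds SPRING1, a partner of the site-1 protease, GNPTAB and 7 membrane-bound factors of the ATF6 and CREB3 families that the same proteases cut, 9 genes in all. With SREBP2 5 were called in each list, ATF6B only with vehicle (5 fragments) and CREB3L2 only with XY018 (15). At CREB3L2 the vehicle region that overlaps it held 31 fragments and lay outside the window, and its ratio, 0.410 (0.206 to 0.782), was the lowest of the list. SPRING1 had the highest, 1.31 (0.578 to 3.09), with 11 and 17 fragments, and the median was 0.577.

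The fourth list holds 21 enzymes of cholesterol synthesis. SREBP2 was called at 18 with vehicle and at 17 with XY018, and all 18 pairs had a ratio under 1, 17 by tags per kb, with a median of 0.601. The lowest was MSMO1, 0.385 with 11 and 5 fragments, and the highest EBP, 0.988 with 18 and 21. CYP51A1 was called only with vehicle for SREBP2 and for RORγ, since the XY018 regions that overlap its vehicle regions (30 and 20 fragments, against 35 and 23) lay outside the window. RORγ at HMGCS1 (4 fragments) and IDI1 (19) was also called only with vehicle. The median SREBP2 ratio over the 6 paired members, with the strongest pair at any start, was 0.706, against 0.621 over all promoters.

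The genes whose 6 promoter values were most like those of each member were found by the distance between log2 pileups over background in the 6 lists, among 9310 other genes called in all 6. The nearest to INSIG1 was NME3 (distance 0.18), to SREBF2 PDS5B (0.22), to MBTPS1 SEC23A (0.24), itself a gene of the COPII list, to SREBF1 HMGB3 (0.28), to SCAP PDLIM4 (0.52) and to MBTPS2 NT5C3B and KLHL10, which tied (0.87). The median distance to all compared genes was 2.28 for SCAP and 3.03 for SREBF2. Each value was that of the strongest region in a window around any start of the gene. For SREBF1 the SREBP2 and RORγ values were therefore from the region at MIR33B and the H3K27ac values from the main promoter. For MBTPS2 the SREBP2 value with XY018 was that of the region of 6 fragments inside the window.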

How the data were processed

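Of 12 libraries of HCC70 cells, 6 were immunoprecipitates with a deposited list of regions. The 6 inputs were not analysed here. Per the labels and the study's methods, the reads were single-end, the build was hg19 and regions were called with MACS2 2.1.0. The aligner differs between sources (Bowtie2 in the submitters' processing notes, BWA in the methods). The deposited columns were fold enrichment at the summit (a ratio), −log10 p and −log10 q, made by the authors with the caller, and the summit's offset, plus the caller's display score, which the authors also deposited and which was not used. The H3K27ac lists held 95099 and 105371 regions on the chromosomes used, with numbers up to 245055 and 241397, so they are part of longer call sets. Regions outside chromosomes 1 to 22 and X, at most 111 a list, were left out. The fragments at the summit were recovered from fold and p, and came out whole (tolerance 0.05) for at least 99.999% of the regions of each list.

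On simulated data all whole pileups were recovered and 2.32% to 5.96% of other values were taken for whole. Pileups were divided by the modal local background of a library, a proxy for depth, as read totals were not used here. Genes came from GENCODE release 44 on GRCh37, in which 0 regions ended beyond a chromosome. Promoters ran from 1000 bp before to 100 bp after any start. Overlap meant at least 1 base, and a promoter's pair was the overlapping pair with the highest summed pileup and at least 1 region in the window. Ratios carry exact conditional binomial intervals, shares Clopper-Pearson intervals and pileups Poisson intervals. The members, the 4 gene lists and the rule naming genes from them (a call that differs between treatments, and the lowest and highest SREBP2 ratio of each list) were chosen with earlier results of these data known. Python 3.11 with scipy was used. One marker gene of another tissue is not reported here.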

Additional observations from a re-analysis of the deposited data

How the results depend on the processing

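Of 183 alternative values, 173 stayed within the interval of the reported value or, for counts, within 1.5 times. For the median ratios this interval came from the fragments pooled over the members. Where an interval included 1, a value could cross 1 and still be counted. The H3K27ac ratio of MBTPS2 did so, at 0.993 by the deposited fold enrichment. The share of SREBP2 vehicle regions kept was 76.3% at q of at most 0.01, and that of RORγ 95% at q of at most 1e-05. With summits within 100 bp, the share of H3K27ac regions kept was 48.4%, and the shares of SREBP2 vehicle regions matched by RORγ and H3K27ac were 33.3% and 39.2%. At q of at most 1e-05 these last shares were 69.0% and 79.3%. By the deposited fold enrichment the median H3K27ac ratio of the members was 1.54. With the vehicle summit nearest to any start, the H3K27ac ratio of SREBF1 was 0.969, at another of its starts. With both regions in the window, chosen after seeing the data like the main-start alternative, the SREBP2 ratio of MBTPS2 was 0.242. At q of at most 0.01 SREBP2 with XY018 was called at 5 members. Except where an alternative's own construction shows it, the cause was not tested. No paired analysis was possible because each group is 1 library. Summits of 13 to 49 fragments limit the SREBP2 and RORγ ratios of the main promoters, of which 10 of 12 intervals include 1.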
